A study of Mus musculus with 11 samples.

Results

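Calb2/Col5a2 nuclei were a small class of mouse trigeminal neuron nuclei picked out by transcripts of Calb2 (calretinin, an EF-hand calcium-binding protein), Col5a2 (an alpha chain of type V collagen), Angpt1 (angiopoietin-1, a secreted ligand of the Tie2 receptor) and Adra1a (the alpha-1A adrenergic receptor). A nucleus belonged to the class if it held at least 3 unique molecular identifiers (UMIs, each standing for 1 captured RNA molecule) of these genes in sum, from at least 2 of the 4 genes. In all, 893 of 40359 nuclei (2.21%) met the rule. They were set against the 33700 nuclei of the same tables that held no UMI of any of the 4 genes, called zero nuclei here, and the remaining 5766 nuclei lay between the classes.

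The trigeminal ganglion holds the cell bodies of the sensory neurons of the face. Its large neurons carry heavily insulated axons that report touch and hair movement, and they are rich in neurofilament proteins. Its small neurons report pain, itch, warmth and cold. In mouse dorsal root ganglia, which hold the matching neurons of the body, the transcription factor Maf together with the receptor Ret and its co-receptor Gfra2 marks rapidly adapting touch neurons, and the neurotrophin-3 receptor Ntrk3 with Runx3 and parvalbumin (Pvalb) marks neurons of muscle sense.

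Nuclei were taken from trigeminal ganglia pooled from male and female mice, enriched for neurons with antibodies to NeuN, a neuronal nuclear protein, and sequenced in droplets. The data formed 8 tables. They held uninjured controls (1 10x Genomics library, and 1 table that pooled 4 Drop-seq libraries from 16 mice), ganglia on the cut side at day 2, 7, 21 and 75 after infraorbital nerve transection (IOT, a cut of the superficial 3 branches of the nerve to the whisker pad), ganglia at day 2 after skin cuts (facial injury: 3 cuts per cheek and 2 on the forehead), and ganglia of mice with scratch lesions of unclear cause. All mice were over 6 weeks of age. Control, IOT and facial injury mice were C57BL/6NCrl animals. Scratch lesion mice were double heterozygous Fos-tTA; tetO-mCherry-2A-Gnaq* animals of mixed FVBN, C57BL and 129 background, so strain, transgene and lesion cannot be told apart in that library. Each 10x library pooled 10 mice, or 6 at day 75, and each condition had 1 10x library. Differences between conditions therefore had no replicate check, and intervals on shares and levels cover counting error only.

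The tables held 3178 to 8660 nuclei and 7735811 to 22003842 UMIs each. Any 2 of the 10x tables shared 16 to 92 nucleus barcodes and none shared a barcode with the Drop-seq table. Calb2/Col5a2 nuclei were deeper than zero nuclei in every table, with a median of 2712 to 6186 UMIs against 1710 to 3991, and 10.7% to 31.6% of them stood among the 5% deepest nuclei of their table. No doublet caller was run. A rule that asks for a fixed number of UMIs admits deep nuclei more readily, so levels were compared as CPM, the share of all UMIs of the summed nuclei of a class and library scaled to a total of 1e6.

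The class made up 3.43% of control 10x nuclei (150 of 4368, 95% Clopper-Pearson interval 2.91% to 4.02%). After IOT it made up 3.23% at day 2 (149 nuclei, 2.74% to 3.78%), 1.88% at day 7 (76 nuclei, 1.49% to 2.35%), 3.81% at day 21 (154 nuclei, 3.24% to 4.44%) and 1.95% at day 75 (71 nuclei, 1.53% to 2.46%). It made up 1.48% of facial injury nuclei (128 nuclei, 1.23% to 1.75%), 1.32% of scratch lesion nuclei (103 nuclei, 1.08% to 1.59%) and 1.95% of the control Drop-seq nuclei (62 nuclei, 1.499% to 2.49%). The libraries differed in depth. The median over all nuclei was 3323 UMIs at day 2, 1747 at day 7, 3138 at day 21, 4178.5 at day 75, 1928 after facial injury and 2303 with scratch lesions, against 3214.5 in the 10x control, so day 7 and facial injury combined low depth with a low share and day 75 had a low share at the greatest depth. When each nucleus of at least 2000 UMIs was thinned to 2000, the shares were 1.79% in the 10x control, 1.40% at day 2, 1.43% at day 7, 2.13% at day 21, 0.605% at day 75, 1.29% after facial injury and 0.774% with scratch lesions. The thinned intervals of the control (1.40% to 2.26%) and of the days 2, 7 and 21 overlapped, and those of day 75 (0.380% to 0.915%) and scratch lesions (0.546% to 1.07%) lay below that of the control. Thinning left out 549 nuclei at day 2, 2425 of 4033 at day 7, 617 at day 21, none at day 75, 4548 of 8660 after facial injury and 3051 of 7829 with scratch lesions, against 468 of the 10x control, and with 1 library each these differences could not be tested.

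**Figure D1:**
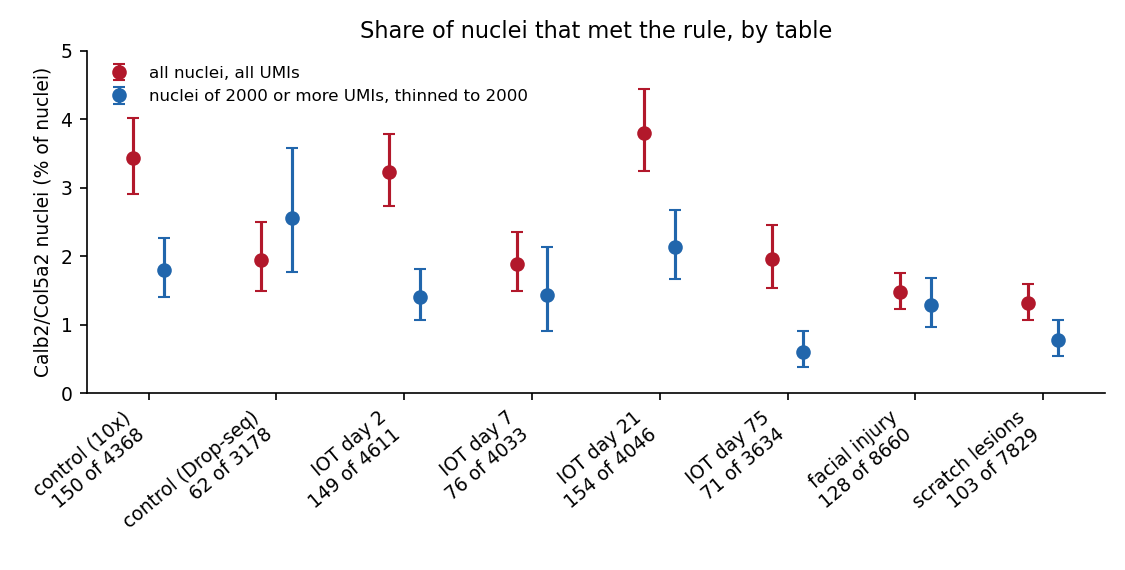
Share of nuclei that met the rule in each of the 8 tables (percent of nuclei, y axis), with 95% Clopper-Pearson intervals as bars and the number of Calb2/Col5a2 nuclei under each table. Red points use all nuclei and all UMIs (1.32% to 3.81%) and blue points only nuclei of at least 2000 UMIs thinned to 2000, where day 75 and scratch lesions are lowest at 0.605% and 0.774%.

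The rule genes themselves are given as a description, since they chose the nuclei. Of the 893 nuclei, 517 met the rule with 2 of the genes, 315 with 3 and 61 with all 4. The median nucleus held 5 UMIs of the rule genes and the highest held 80, while 242 nuclei (27.1%) held exactly 3. Col5a2 was the most often found, and 418 nuclei (46.8%) had no Calb2 UMI at all. Over the 7 10x libraries the class averaged 668 ± 399 CPM of Calb2, 440 ± 158 CPM of Col5a2, 316 ± 70.9 CPM of Angpt1 and 138 ± 35.3 CPM of Adra1a (SD, n = 7). Calb2 varied most between libraries, with 701 CPM in the control, 493 at day 2, 1485.5 at day 7, 733 at day 21, 227 at day 75, 590.4 after facial injury and 447 with scratch lesions. The 10x library with the highest Calb2 level, day 7, was also the shallowest, and 71.1% of its Calb2/Col5a2 nuclei held a Calb2 UMI against 45.1% to 58.6% in the other 10x libraries. Just outside the rule stood 422 nuclei with 1 UMI from each of 2 rule genes and 258 with at least 3 UMIs of a single rule gene.

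Nuclei on either side of the threshold differed by degree in Ntng1 and Scn10a, and other genes did not follow the same order. Ntng1, which encodes the axonal adhesion protein netrin-G1 and was not part of the rule, averaged 1968 CPM in nuclei with 4 or more rule UMIs, 1480.1 CPM in those with exactly 3, 1484 CPM just outside in nuclei with 3 or more UMIs of 1 gene, 954 CPM in those with 1 UMI of each of 2 genes, and 290 CPM in zero nuclei. Scn10a, the sodium channel Nav1.8 of nociceptors, ran the other way with 83.5, 188, 164, 272 and 501 CPM in the same order. In these 2 genes the nuclei with exactly 3 rule UMIs lay near those with 3 or more UMIs of a single gene. Shox2 was level too, at 73.0 and 72.9 CPM. Eya1, described further on, averaged 94.1 CPM at 4 or more rule UMIs and 8.23 CPM at exactly 3. Nuclei left out with 3 or more UMIs of 1 gene had 36.3 CPM of it. Nefh, a neurofilament gene, had 2088, 953 and 1651 CPM in that order. S100b, Lgi2 and Tmem132c were likewise lower at exactly 3 than in those left out.

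The label of large neurons was checked against marker lists. Of 20 large neuron genes tested, 12 were higher in Calb2/Col5a2 nuclei than in zero nuclei and 6 were lower (edgeR quasi-likelihood test on sums per class and library, adjusted p under 0.05), with a median log2 fold change of 0.91. Over all 13635 genes tested, 16.2% were higher and 20.5% lower, with a median of -0.03. All 17 small neuron genes tested were lower, with a median of -2.04. Ntng1 (log2 fold change 2.65) and Esrrg (1.45) had the largest named rises of the first list, followed by the neurofilament genes, which set axon calibre. Nefh (heavy chain) had a lowest, median and highest level of 1079, 1943 and 3178 CPM in Calb2/Col5a2 nuclei and of 453, 616 and 896 CPM in zero nuclei over the 7 libraries, so the classes did not overlap (log2 fold change 1.42, SE 0.10, adjusted p = 8.55e-13). Nefm and Nefl rose by 1.33 and 1.15 on the log2 scale, and S100b, a calcium-binding protein of large neurons and glia, by 0.99. Among the small neuron genes Scn10a had 39.5, 107 and 181 CPM in the class and 351, 535 and 576 CPM in zero nuclei (log2 fold change -2.33, SE 0.13, adjusted p = 4.39e-15). Tac1, which encodes substance P, was lower in 7 of 7 libraries by a log2 fold change of -1.65. Against zero nuclei, which mix small and large neurons, the data thus matched the label of large neurons. Even so, the 6 large neuron genes that fell were Piezo2, Ntrk3, Runx3, Scn1a, Thsd7a and Cntnap2. Pvalb was not called (71.7 ± 22.9 CPM against 61.1 ± 15.9 CPM, adjusted p = 0.18).

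Markers of other cells were low in both classes. Summed over each list, Schwann cell genes reached 208 to 893 CPM in Calb2/Col5a2 nuclei and 504 to 1378 CPM in zero nuclei over the 7 libraries, fibroblast genes 75.8 to 126 and 90.7 to 199 CPM, vascular genes 21.1 to 128 and 72.8 to 159 CPM, leukocyte genes 12.5 to 102 and 36.2 to 180.0 CPM, and red cell genes 18.2 to 208 and 38.5 to 208 CPM. Of 7 vascular genes, 3 to 6 had a UMI in the class in each 10x library, and of 6 leukocyte genes 1 to 4. Cldn5 of vessels had none in the control, day 2, 7, 21 or 75 libraries. Ptprc of leukocytes had none in the control, day 7, day 21, facial injury or scratch lesion libraries. Aif1 of leukocytes had none in the control, day 2, day 7, day 21, facial injury or scratch lesion libraries. Csf1r of leukocytes had none in the day 2, day 7, day 75, facial injury or scratch lesion libraries. The other genes of both lists were more often present. No gene of these 5 lists was higher in the class, and their part in the results was not tested. Satellite glia genes summed to 568 to 1083 CPM in the class and 362 to 976 CPM in zero nuclei, and 1 of the 7, Glul, was higher, and Sparc and Ednrb were among those that were lower. Glul encodes glutamine synthetase and had 202, 315 and 395 CPM (lowest, median, highest) in the class against 84.7, 98.3 and 133 CPM in zero nuclei. By the marker rules of the other trigeminal classes, 58 of the 893 nuclei (6.49%) also met the rule of C5 (Cadps2, Ntrk2, Colq). This lay within the range of zero nuclei over the tables, 2.64% (day 7) to 10.6% (day 75). The rule of cold-sensing C1/2 was met by 34 nuclei (3.81%) and that of peptidergic C7-10 by 27 (3.02%). Zero nuclei met these at 3.15% to 11.2% and at 8.69% to 14.6% over the tables. For both rules the class was lower than zero nuclei in every table. The rule of C3 was met by 5 nuclei, that of C13 by 4 and that of C12 by 1.

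Clusters of the 37181 10x nuclei were made with the rule genes left out. A single one of 21 clusters, number 10, held 669 of the 831 Calb2/Col5a2 nuclei (80.5%) and 1.14% of the zero nuclei. Its share of the class was 70.4% to 86.4% in each library, lowest at day 75 and highest with scratch lesions. The class made up 37.7% of the 1776 nuclei of that cluster, whose leading genes were Gm45178, Gm45159, Gm45179 and Eya1. The part of nuclei in the cluster climbed with the rule UMIs: 1.14% at 0 UMIs, 8.44% at 1, 33.1% with 1 UMI of each of 2 genes, 66.2% at exactly 3 UMIs that met the rule and 85.9% at 4 or more. No other cluster held over 4.0% of the class. The cluster's leading genes are a description of how it was built and carry no test.

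**Figure D2:**
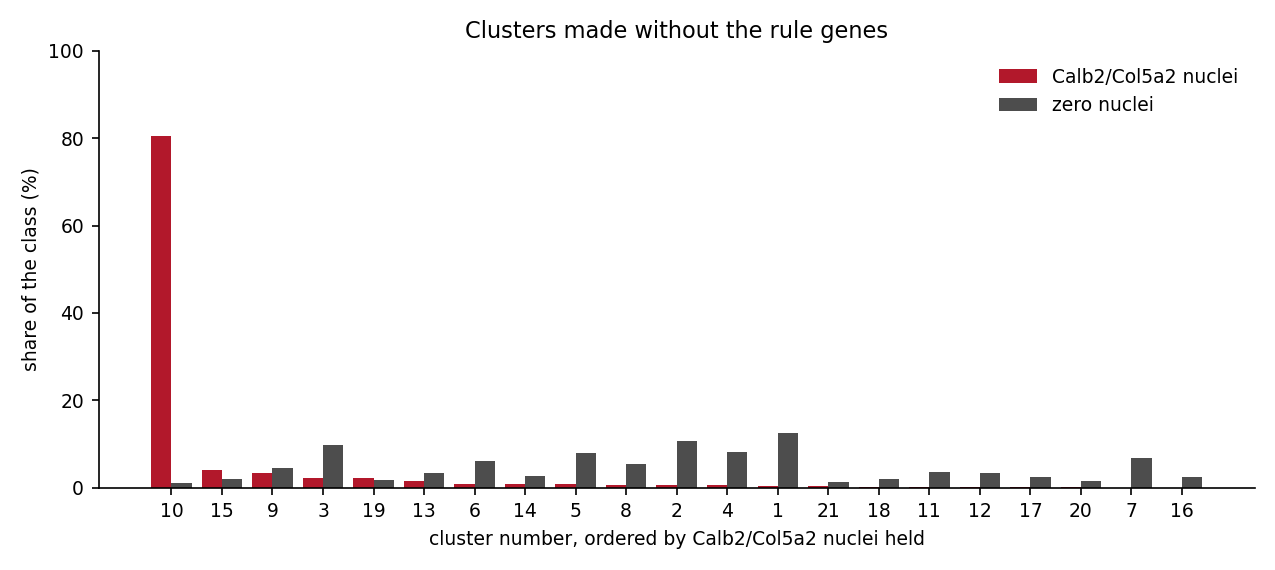
Share of Calb2/Col5a2 nuclei (red) and of zero nuclei (grey) in each of 21 clusters of 37181 10x nuclei, in percent of the class (y axis, from 0), with clusters ordered by the number of Calb2/Col5a2 nuclei they held. Cluster 10 held 80.5% of the Calb2/Col5a2 nuclei and 1.14% of the zero nuclei.

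The genes that set the class apart most from zero nuclei were not classical large neuron markers. Eya1, a transcriptional co-activator and phosphatase of the eyes absent family, had 30.9, 75.6 and 137 CPM (lowest, median, highest of 7 libraries) in Calb2/Col5a2 nuclei and 1.18, 3.07 and 3.66 CPM in zero nuclei. Its log2 fold change was 4.64 (SE 0.18, adjusted p = 4.57e-19). Its lowest level in the class was in the scratch lesion library. Ibsp, the bone sialoprotein better known from mineralised matrix, had 8.92, 20.2 and 66.8 CPM in the class and 0.502, 1.27 and 2.09 CPM in zero nuclei (log2 fold change 4.24, SE 0.26). Fam46b, of a family of poly(A) polymerases, reached 8.97, 16.1 and 36.5 CPM against 0.263, 1.001 and 1.60 CPM (log2 fold change 4.13). For these 3 genes and the other 7 of the 10 largest rises the levels of the 2 classes did not overlap over the 7 libraries. The naming rule chose large fold changes that were higher in 7 of 7 libraries, so this is a description and no further support. The share of all tested genes without overlap was not counted.

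Among the rest of the 10 were Plk5 (a polo-like kinase, log2 fold change 3.94), Mc4r (the melanocortin-4 receptor, 3.71), Enpep (glutamyl aminopeptidase, which cleaves angiotensin II, 3.71) and Whrn (whirlin, a scaffold known from hair cell stereocilia, 3.70). Mc4r was rare, with 3.57, 8.43 and 27.3 CPM in the class and 0.438, 0.718 and 1.18 CPM in zero nuclei, and at 2 to 11 UMIs a library in the class. The remaining 3 were the noncoding genes Gm45178, Gm45159 and Gm45179 (log2 fold changes 3.98, 3.91 and 3.86). Gm45178 had 63.8, 113 and 173 CPM in the class and 4.42, 7.10 and 9.34 CPM in zero nuclei.

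**Figure D3:**
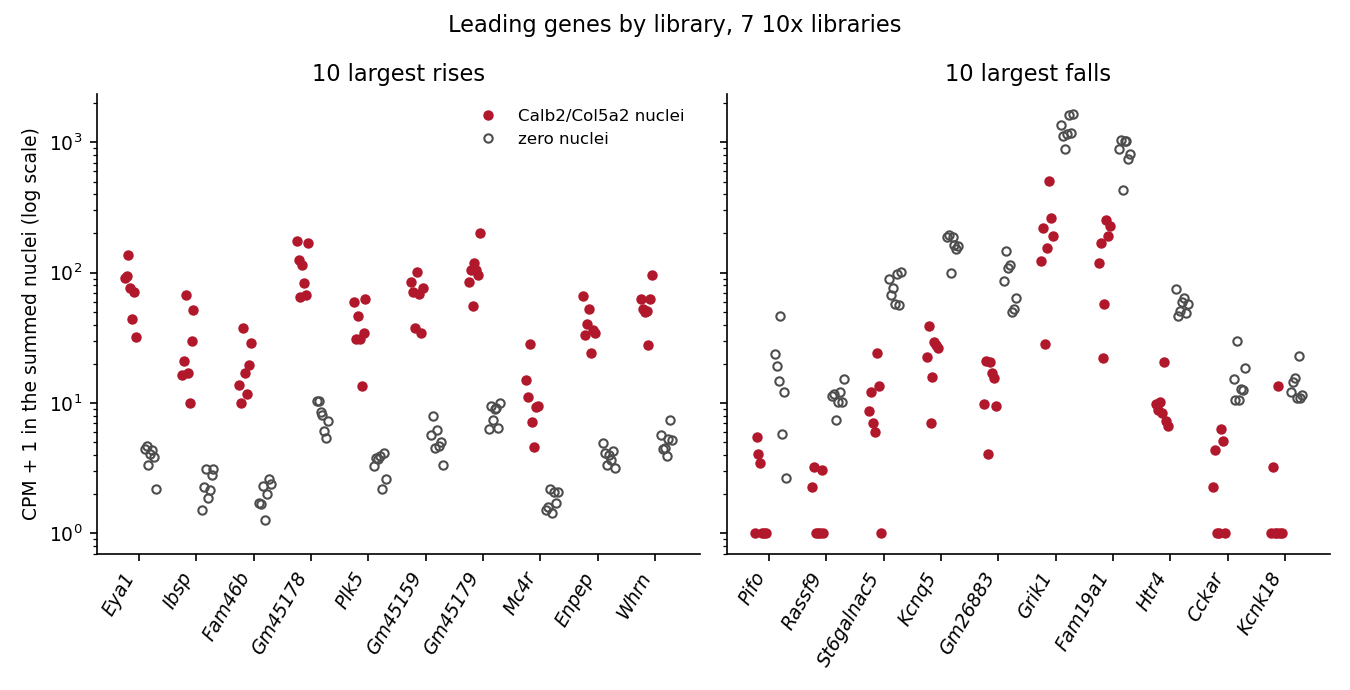
CPM + 1 (log axis) of the 10 genes with the largest rises (left) and falls (right) in summed Calb2/Col5a2 nuclei (red) and summed zero nuclei (open grey), 1 point for each of the 7 10x libraries. The genes were chosen for the same direction in 7 of 7 libraries, and for all 10 rises the 2 sets of points do not overlap. On the right, points at 1 stand for libraries without a UMI of the gene.

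The 3 noncoding genes lie together on chromosome 7 (build mm10, GENCODE annotation), inside the body of Dlg2 on the same strand. Gm45159 is annotated as a lincRNA at chr7:90887072-90940052, and Gm45178 at chr7:90995309-90999418 and Gm45179 at chr7:91048999-91053335 are annotated as TEC, a class of transcripts to be experimentally checked. Dlg2 itself, which encodes the synaptic scaffold PSD-93, runs from 90476672 to 92449247. The 10x tables list Dlg2 on a pair of rows, and per the study's notes the name Dlg2.1 stands for the gene in the reference used. The row Dlg2.1 had 1625, 3713 and 4548 CPM (lowest, median, highest) in Calb2/Col5a2 nuclei and 709.9 to 1264 CPM in zero nuclei, without overlap (log2 fold change 1.81, SE 0.10, adjusted p = 7.15e-16). It was higher in the class than in Runx3/Neb, Fras1/Chrm2 and Ano1/Slc38a11 nuclei too, the sets of large neurons described further on (log2 fold changes 1.13, 1.48 and 0.67). The row named Dlg2 held 1 to 4 UMIs a library in the class and was not called (adjusted p = 0.559). In the Drop-seq control table, which lists neither Dlg2.1 nor the 3 noncoding genes, Dlg2 stood at 1277 CPM in the class (349 UMIs, exact Poisson interval 1146 to 1418) and 482 CPM in zero nuclei (466 to 499). Dlg2 and the noncoding genes inside it thus lay higher in the class together. Since the genes overlap on 1 strand and nuclear reads come largely from introns, reads of Dlg2 pre-mRNA and of these noncoding genes cannot be told apart.

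Transcription factors of neuronal identity divided. Of 31 tested, 7 were higher in the class (22.6%) and 22 lower (71.0%), with a median log2 fold change of -0.998. Over all genes tested 16.2% were higher and 20.5% lower. Maf had 543, 740.4 and 1804 CPM in the class and 102, 137 and 194 CPM in zero nuclei (log2 fold change 2.71, SE 0.09, adjusted p = 6.79e-21). Its highest level was at day 7, the library with the highest Calb2. Meis1, a homeodomain factor, had 143, 263 and 308 CPM against 34.7, 45.9 and 60.4 CPM (log2 fold change 2.38, SE 0.11), and Shox2, which in mouse acts in the specification of touch neurons with the receptor TrkB, had 67.2, 94.2 and 160.1 CPM against 6.72, 8.31 and 12.5 CPM (log2 fold change 3.30, SE 0.13). Esrrg, an orphan nuclear receptor of large neurons, rose by 1.45. Etv1, Hoxd1 and Meis2 completed the 7. Those that fell included Runx1 and Prdm12, factors of nociceptors, Runx3, and the pan-sensory Pou4f1.

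Receptors for growth factors showed the same division. Of 13 tested, Ret, Gfra2, Ntrk2 and Sorcs3 were higher (30.8%) and 8 lower (61.5%), beside 16.2% and 20.5% of all genes tested. Ret, the signalling receptor for the GDNF family, had 555, 635 and 1133 CPM in the class and 272, 380.4 and 590.5 CPM in zero nuclei, which overlapped across libraries but was higher in 7 of 7 (log2 fold change 0.92, SE 0.09, adjusted p = 4.2e-10). Gfra2, the neurturin co-receptor, rose by 0.75 (SE 0.10) and was also higher in 7 of 7 libraries. Ntrk2, the BDNF receptor TrkB, rose by 0.39 (SE 0.08) in 6 of 7 libraries. Ntrk3, the neurotrophin-3 receptor TrkC, had 30.4, 157 and 268 CPM in the class and 469, 656 and 736 CPM in zero nuclei, without overlap (log2 fold change -2.01, SE 0.13, adjusted p = 1.17e-13). Ngfr, Gfra1 and Gfra3, which binds artemin, were among the 8 that fell.

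Potassium, sodium and calcium channel genes fell more often than they rose. Of 40 potassium channel genes tested, 29 were lower (72.5%) and 8 higher (20%), with a median log2 fold change of -1.23. Over all genes tested 20.5% were lower and 16.2% higher. The largest fall among them that met the naming rule was Kcnq5, an M-current subunit, with 6.08, 25.3 and 38.1 CPM in the class and 97.6, 161 and 195 CPM in zero nuclei (log2 fold change -2.83, SE 0.14). Kcnip4, a subunit of A-type channels, had 100.2, 846 and 1051 CPM against 2624, 3842 and 4613 CPM (log2 fold change -2.50, SE 0.16). The 8 that rose included Kcna1 and Kcna2, the Kv1 channels that flank the nodes of myelinated axons (0.81 and 0.82). Kcng4, a silent modifier subunit outside that list, rose by 3.43, with 50.8, 92.9 and 179 CPM in the class against 4.12, 8.48 and 12.8 CPM in zero nuclei.

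Of 16 sodium channel genes, 5 were higher (31.25%) and 11 lower (68.75%), beside 16.2% and 20.5% of all genes tested. Scn8a, the nodal channel Nav1.6, had 419, 579 and 787 CPM in the class and 265, 346 and 488 CPM in zero nuclei (log2 fold change 0.75, SE 0.08), and Scn4b, Fgf12 and Fgf14, which encode a subunit and partners of such channels, also rose. Of 17 calcium channel genes, 4 were higher (23.5%) and 11 lower (64.7%), and Cacna1d (Cav1.3) rose by 0.90. Hcn2, a pacemaker channel, rose by 0.46 and Hcn3 fell. Of 23 mechanotransduction genes tested, 12 were lower (52.2%) and 4 higher (17.4%). Piezo2, the principal channel of light touch, had 471, 810.0 and 877 CPM in the class and 840.2, 1242 and 1407 CPM in zero nuclei, lower in 7 of 7 libraries (log2 fold change -0.70, SE 0.07, adjusted p = 1.74e-09). Asic2 fell by 2.30 on the log2 scale.

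Of 21 other calcium-binding protein genes tested, 8 were higher and 8 lower (38.1% each). Calb1, calbindin, the closest relative of calretinin among them, had 44.9, 112 and 137 CPM in the class and 19.9, 28.8 and 51.1 CPM in zero nuclei (log2 fold change 1.76, SE 0.15, adjusted p = 3.75e-11). It was higher in 7 of 7 libraries, and least so with scratch lesions (44.9 CPM against 37.9 CPM). Cabp7 fell (log2 fold change -1.66). Of 30 other collagen genes tested, 6 (20%) were higher and 8 (26.7%) lower, near the 16.2% and 20.5% over all genes. Col25a1, a transmembrane collagen needed in mouse for motor innervation of muscle, rose by 2.92 (SE 0.21), with 91.1, 175 and 345 CPM in the class and 13.5, 21.9 and 48.9 CPM in zero nuclei. Col6a3, a chain of microfibrillar collagen VI, rose by 2.80. Of the adrenergic receptors only Adra2c passed the filter on low counts with a call, and it was lower (9.10 ± 5.89 CPM against 23.1 ± 8.05 CPM, log2 fold change -1.30, adjusted p = 2.17e-05). Tek, which encodes Tie2, the receptor of angiopoietin-1, was at 9.33 ± 7.84 CPM in the class and 9.62 ± 6.96 CPM in zero nuclei (adjusted p = 0.766), and Ptprb and Angptl2 were lower.

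Genes of contact and wiring were among the most abundant that rose. The counts that follow stand beside 16.2% higher and 20.5% lower over all genes tested. Ntng1 had 1428, 2097 and 2294 CPM in the class and 233, 288 and 346 CPM in zero nuclei (log2 fold change 2.65, SE 0.08, adjusted p = 7.32e-22). Of 37 axon guidance genes, 14 were higher and 17 lower, and Epha5, an ephrin receptor, rose by 2.09 (SE 0.09). Of 32 cadherin and contactin genes, 9 were higher and 21 lower. Lgi2, a secreted synaptic protein of the leucine-rich glioma-inactivated family, had 457, 559 and 823 CPM against 51.3, 70.5 and 101 CPM (log2 fold change 3.09, SE 0.09). Of 26 genes of synaptic release, 9 rose, among them Slc17a7 (VGLUT1), Syt2, Vamp1 and Cplx1, and 14 fell, among them Slc17a6 (VGLUT2) and Cplx2. Of 11 GABA-A receptor genes, 5 rose and 3 fell, and the gamma-1 subunit Gabrg1 rose most of those named (log2 fold change 2.14, SE 0.11). Of 21 glutamate receptor genes 6 rose and 13 fell, led by the kainate receptor Grik1, with 27.3, 191 and 503 CPM in the class and 892, 1171 and 1635 CPM in zero nuclei (log2 fold change -2.72). Among neuropeptides 1 of 9 rose (Nts, neurotensin, higher in 4 of 7 libraries) and 7 fell.

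Zero nuclei mix small and large neurons, so the class was next set against 3 other sets of large neurons in the same libraries. These were nuclei with at least 1 UMI of both Runx3 and Neb (138 10x nuclei), of both Fras1 and Chrm2 (306), or of both Ano1 and Slc38a11 (272), and at least 3 UMIs of the pair. Rule genes stayed out of each test, as did the 2 nuclei in each set that also met the Calb2/Col5a2 rule. Day 7 was the thinnest library, with sums over 6 Runx3/Neb, 6 Fras1/Chrm2 and 9 Ano1/Slc38a11 nuclei. Median depth over the 10x libraries was 5301.5 to 15018 UMIs in Runx3/Neb nuclei and 3808.5 to 7583.5 in Fras1/Chrm2 nuclei. It was 2676 to 6587 in Ano1/Slc38a11 nuclei and 2712 to 6186 in the class. Against Runx3/Neb nuclei 12.5% of 5738 genes were higher in the class and 13.2% lower, against Fras1/Chrm2 nuclei 12.4% of 7189 higher and 13% lower, and against Ano1/Slc38a11 nuclei 9.26% of 6036 higher and 10.6% lower. The 3 comparisons share the Calb2/Col5a2 sums. Against Runx3/Neb nuclei 5 of 19 large neuron genes tested were higher in the class and 9 lower. Of 10 small neuron genes 5 were higher there and 0 lower. Against Fras1/Chrm2 nuclei 10 of 19 large neuron genes were higher and 5 lower, and 8 of 12 small neuron genes lower. Against Ano1/Slc38a11 nuclei 8 of 19 large neuron genes were higher and 6 lower, and 2 of 10 small neuron genes lower.

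Ntng1, Maf, Meis1, Col25a1, Gfra2 and Calb1 were higher in the class than in each of the 3 sets. Ntng1 averaged 1873 CPM in the class, against 103 CPM in Runx3/Neb, 485 CPM in Fras1/Chrm2 and 146 CPM in Ano1/Slc38a11 nuclei (log2 fold changes 4.21, 1.99 and 3.59). It was not particular to the class. Clusters 15, 14 and 13, which held 3.97%, 0.963% and 1.56% of the class, had 1973, 1756 and 1678 CPM of Ntng1. Cluster 10 had 2122 CPM, and no set compared here stood for those other clusters. Maf averaged 966 CPM against 249, 228 and 169 CPM in the same order (1.83, 2.1 and 2.28). Meis1 averaged 236 CPM against 19.8, 40.8 and 23.3 CPM, and Gfra2 135 CPM against 17.4, 33.3 and 22.2 CPM. Ntrk3 was lower than in each set, at 163 CPM in the class against 1839, 939 and 1506 CPM (log2 fold changes -3.43, -2.47 and -3.38). Other genes depended on the set. Ret was higher than in Runx3/Neb (1.15) and Ano1/Slc38a11 nuclei (1.83) and stood at 760.2 CPM against 720.3 CPM in Fras1/Chrm2 nuclei (log2 fold change -0.02, SE 0.11, adjusted p = 0.938). Nefh was higher than in Fras1/Chrm2 (0.69) and Ano1/Slc38a11 nuclei (0.80) and at 1863 CPM against 1954 CPM in Runx3/Neb nuclei (log2 fold change -0.14, SE 0.10, adjusted p = 0.335). Pvalb was lower than in Runx3/Neb (-1.97) and Ano1/Slc38a11 nuclei (-1.38), and Piezo2 was higher than in Runx3/Neb (0.30) and lower than in Fras1/Chrm2 nuclei (-1.43).

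**Figure D4:**
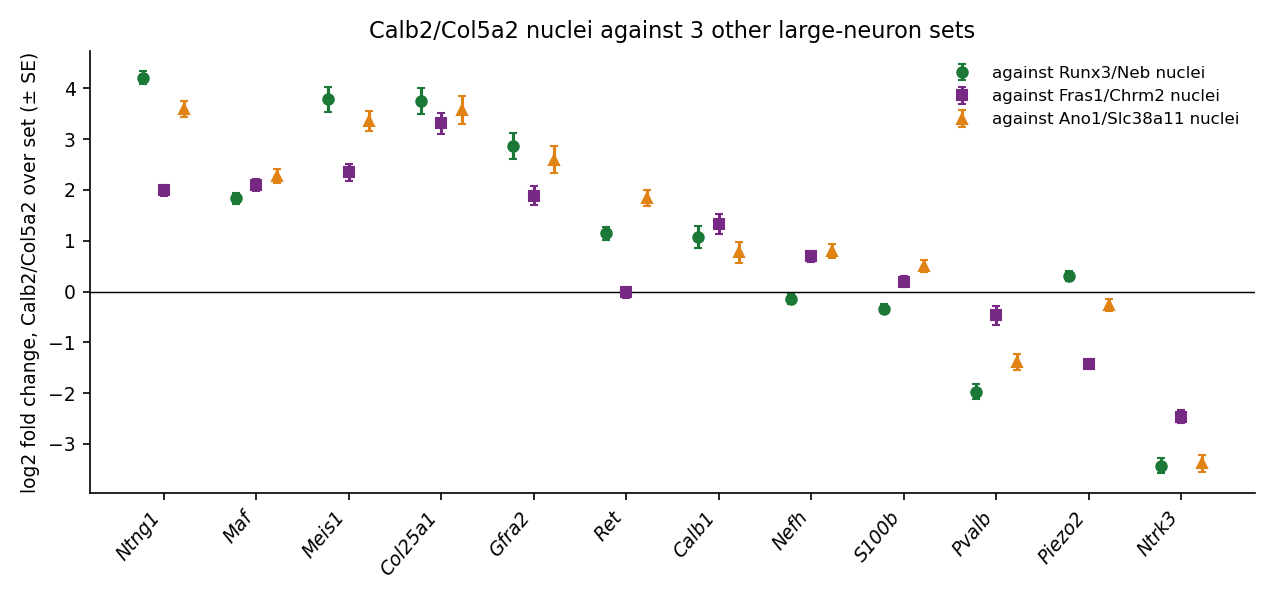
Log2 fold change (Calb2/Col5a2 nuclei over each set, edgeR, 7 10x libraries, bars are SE) of 12 genes against Runx3/Neb (green circles), Fras1/Chrm2 (purple squares) and Ano1/Slc38a11 nuclei (orange triangles). Values above 0 are higher in Calb2/Col5a2 nuclei, as for Ntng1 (4.21, 1.99 and 3.59), and Ntrk3 lies below 0 in all 3.

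The largest rises against Runx3/Neb nuclei were Tmem132c (5.47), Gm45159 (5.25), Chrm3 (the M3 muscarinic receptor, 4.73), the unconventional myosin Myo1a (4.58) and Kcng4 (4.41), on the log2 scale. Against Ano1/Slc38a11 nuclei they were Tmem132c (4.68), Kcng4 (3.97), Eya1 (3.79), Chrm3 (3.76) and Myo1a (3.73). Against Fras1/Chrm2 nuclei they were Whrn (4.57), Gm45159 (4.43), the amino acid transporter Slc38a4 (4.21), Col6a3 (3.98) and Gm45178 (3.93). Chrm3 had 220.4, 300.5 and 419 CPM in the class over the 7 libraries, against an average of 11.1 CPM in Runx3/Neb, 60.5 CPM in Fras1/Chrm2 and 23.3 CPM in Ano1/Slc38a11 nuclei.

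The largest falls included Cabp7, Cacng2 (stargazin, an auxiliary AMPA receptor subunit) and Vstm2b against Runx3/Neb nuclei (-3.58, -3.69 and -4.29). Grm8 (metabotropic glutamate receptor 8) and Fam19a1 (a secreted chemokine-like protein) led against Fras1/Chrm2 nuclei, at -3.55 each. Fam19a2 (-3.51) and Ntrk3 (-3.38) led against Ano1/Slc38a11 nuclei. Potassium channel genes were lower in the class than in all 3 sets more often than higher, with 16 lower and 2 higher of 27 tested against Runx3/Neb, 22 and 6 of 33 against Fras1/Chrm2, and 16 and 3 of 32 against Ano1/Slc38a11 nuclei. Over all genes tested 13.2%, 13% and 10.6% were lower and 12.5%, 12.4% and 9.26% higher, in the same order of sets. The median log2 fold changes of the potassium channel genes were -0.60, -0.65 and -0.40, beside -0.02, 0.04 and 0.02 over all genes tested. Of the satellite glia genes, Glul was higher in the class than in all 3 sets (1.66, 1.41 and 1.79), and so was Apoe, an apolipoprotein abundant in these glia (0.58, 0.63 and 0.44). They were the 2 called of 3, 4 and 4 genes of that list tested, and the part of glial RNA in these results was not tested.

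Nuclei of the class met the rule with or without Calb2. The 10x nuclei comprised 430 with a Calb2 UMI and 401 without, which held the other rule genes instead, and since the rule used Calb2 their values are a description with no test and support nothing further. Nuclei with a Calb2 UMI were deeper (median 3331 to 6233 UMIs over the libraries against 1877.5 to 5779). Eya1 averaged 116 CPM in nuclei with Calb2 (313 UMIs) and 10.0 CPM in nuclei without (16 UMIs), and was higher with Calb2 in 7 of 7 libraries. Mc4r had 43 UMIs in nuclei with Calb2 and 0 in nuclei without. Ibsp (41.6 CPM with Calb2 and 7.96 CPM without), Calb1 (137 and 49.2 CPM), Lgi2 (731 and 373 CPM), Ret (918 and 474 CPM), Nefh (2354 and 965 CPM) and S100b (1108 and 619 CPM) were likewise higher with Calb2 in 7 of 7 libraries.

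Other leading genes ran the opposite way. Gm45178 averaged 85.9 CPM in nuclei with Calb2 and 152 CPM in nuclei without, and was lower with Calb2 in 7 of 7 libraries. So were Gm45159 (52.9 and 91.8 CPM), Dlg2.1 (2654 and 4413 CPM), Oprk1, the kappa opioid receptor (17.6 and 55.1 CPM), and Piezo2 (629 and 974 CPM). Htr1f, the serotonin receptor 1F (513 and 772 CPM), and Cntnap4, a contactin-associated protein (30.7 and 96.4 CPM), were lower with Calb2 in 6 of 7. Ntng1 (1895 and 1865 CPM) and Shox2 (99.9 and 88.2 CPM) were nearly level. Cluster 10 took in 83.7% of the nuclei with Calb2 and 77.1% of those without, so most of both kinds lay in the same cluster. The 1107 nuclei of that cluster outside the class had 8.78 CPM of Eya1, 136 CPM of Gm45178, 62.7 CPM of Oprk1 and 964 CPM of Nefh on average, near the nuclei without Calb2. They had 2023 CPM of Ntng1, and in Ntrk3 they lay near the nuclei with Calb2 (106 CPM, against 114 with and 231 without), while in Plk5 they were below both (21.4 CPM, against 32.6 with and 59.3 without).

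**Figure D5:**
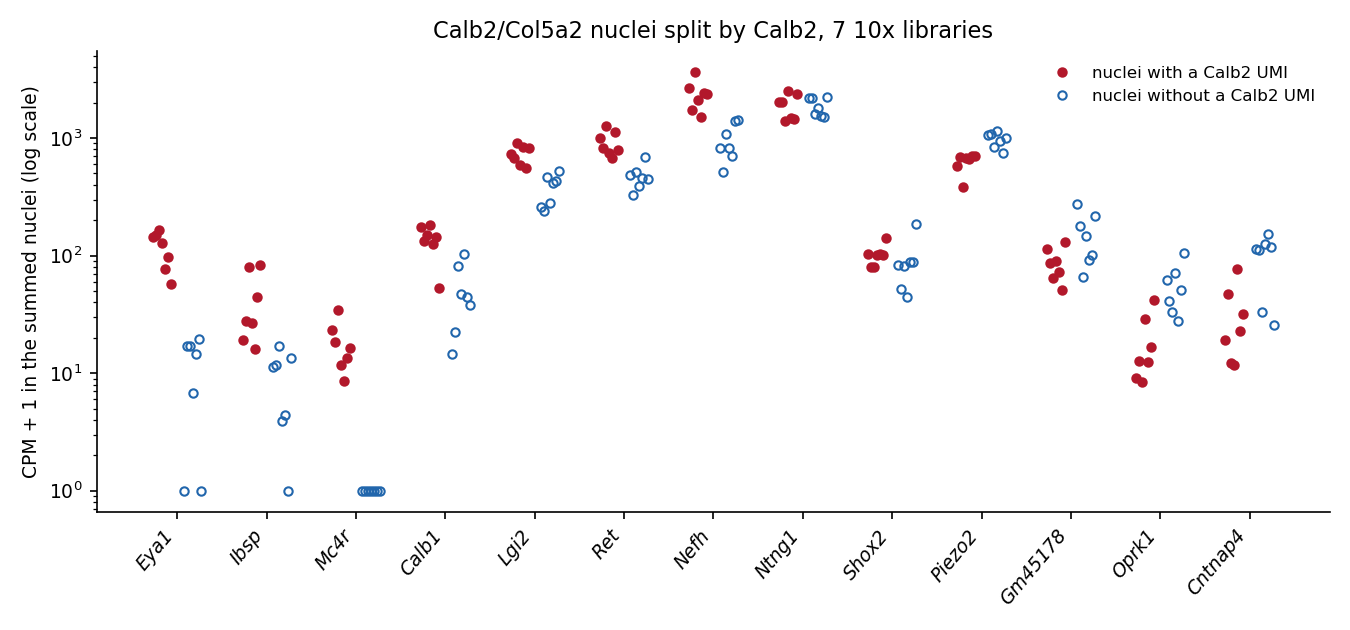
CPM + 1 (log axis) of 13 genes in summed Calb2/Col5a2 nuclei with a Calb2 UMI (red) and without one (open blue), 1 point for each of the 7 10x libraries. Eya1, Mc4r, Lgi2, Ret and Nefh lie higher with Calb2 in every library, Gm45178, Oprk1 and Piezo2 lower, and Ntng1 overlaps.

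Levels of injury genes in the class are given per condition as a description, since each condition had 1 10x library. Atf3, the transcription factor induced by axon damage, stood at 5.09 CPM in control Calb2/Col5a2 nuclei (4 UMIs, exact Poisson interval 1.39 to 13.03). It was 38.1 CPM at day 2 (26.4 to 53.3), 39.5 CPM at day 7 (21.0 to 67.5), 19.8 CPM at day 21 (11.3 to 32.2) and 12.5 CPM at day 75 (5.02 to 25.7). In zero nuclei it was 2.08 CPM in the control, 53.0 at day 2, 78.4 at day 7, 33.0 at day 21 and 10.5 at day 75. Intervals of the class at day 2 and day 7 lay above that of its 10x control. After facial injury Atf3 was at 16.6 CPM in the class and 15.8 CPM in zero nuclei, and with scratch lesions at 11.2 and 24.6 CPM. In the Drop-seq control it was at 25.6 CPM in the class on 7 UMIs (10.3 to 52.8), an interval that overlapped those of all 4 IOT days. Sprr1a, another gene induced by axon damage, had 3, 0, 3 and 1 UMIs in the class at days 2, 7, 21 and 75 (upper bounds 9.83, 11.2, 10.9 and 9.94 CPM), and zero nuclei had 20.9, 49.5, 15.3 and 6.81 CPM on the same days.

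Of 12 injury-induced genes tested, 3 were higher in Calb2/Col5a2 nuclei than in zero nuclei over all 7 libraries (25%) and 7 lower (58.3%). Over all genes tested 16.2% were higher and 20.5% lower. The study chose this list on these samples, so it is no independent evidence. Atf3 was among the 7 lower (edgeR log2 fold change -0.54, SE 0.18, adjusted p = 0.0211). Sema6a, a guidance molecule of that list and 1 of the 3 that were higher, was present in uninjured nuclei of the class already, at 113 CPM in control Calb2/Col5a2 nuclei (90.9 to 139) and 33.2 CPM in control zero nuclei. It reached 289 CPM in the class at day 2 (255 to 327), where zero nuclei were at 241 CPM. At days 7, 21 and 75 it was at 137, 175 and 187 CPM in the class and at 144, 88.6 and 70.8 CPM in zero nuclei. In cluster 9, which had Atf3 as the second of its leading genes after Anxa11os, stood 14 of 149 nuclei of the class at day 2 (9.40%), 3 of 76 at day 7, 6 of 154 at day 21, 3 of 71 at day 75, 2 of 128 after facial injury and none of the 150 control or 103 scratch lesion nuclei. Of the zero nuclei 12.2% lay in it at day 2, 11.99% at day 7, 5.74% at day 21, 2.83% at day 75, 1.54% after facial injury, 2.59% with scratch lesions and 0.111% in the 10x control. The shares of the class concern only nuclei that still held transcripts of the rule genes, and nuclei without them could not be counted in it.

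Whether the difference between Calb2/Col5a2 and zero nuclei changed with transection was tested with the 4 IOT libraries against the 3 others as an interaction in edgeR. No gene of 13635 passed (0.0%, lowest adjusted p = 0.212), 640 genes (4.69%) had an unadjusted p under 0.05, and DESeq2 called 0. Atf3 was not called (unadjusted p = 0.361). The count depended on single libraries by a few genes: 2 larger and 2 smaller differences were called without day 7, 0 and 3 without day 21, 0 and 2 without day 75, 1 and 1 without facial injury, and 0 and 1 without scratch lesions. Libraries of this comparison differ in day, injury and strain, and 14 sums of 7 libraries gave 5 residual degrees of freedom.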

How the data were processed

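Single-nucleus RNA was sequenced, and the authors deposited whole-number UMI counts per gene and nucleus, 1 table per 10x library and 1 for the 4 Drop-seq libraries, which it does not separate. Per the study's methods the alignment was to a pre-mRNA version of mm10, so that intronic reads count, and non-neuronal clusters and poor nuclei were removed before deposit. STAR 2.5.3a, Cell Ranger 2.1.0 and Seurat 2 stand in the submitters' processing notes.

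Counts were summed per class and 10x library and tested with edgeR 4.0.16 (quasi-likelihood, TMM, filterByExpr, library as a block because both sums come from 1 library, Benjamini-Hochberg over all genes), with 6 residual degrees of freedom, or 5 for the interaction. Libraries differ in condition, so a call speaks of an average difference over them and need not hold in each. SE is the log2 fold change over the root of F. Clusters used 2000 variable genes, 30 components, 20 neighbours and leidenalg 0.10.2. The fits were tested on simulated data. Alternatives were DESeq2 1.42.0, other scaling, no filter, no block, Drop-seq as an added table, thinning, depth limits, stricter and looser rules, and each library left out.

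Members and lists were chosen with earlier results of these data known. Named genes were the 10 largest rises and 10 falls (5 and 5 per set) at adjusted p under 0.05, at least 10 CPM and the same direction in 7 of 7 libraries, and up to 6 members of each list by CPM. Shox2, Lgi2, Oprk1, Htr1f, Cntnap4, Dlg2, Dlg2.1 and list members named only as called were chosen after their values were seen. Positions come from GENCODE. Some genes are not reported here.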

Additional observations from a re-analysis of the deposited data

How the results depend on the processing

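Counts of called genes kept their size within 1.5 times under most alternatives. Exceptions were fits without the replicate block, which called 964 higher and 1398 lower genes against zero nuclei, 278 and 276 against Runx3/Neb, 424 and 478 against Fras1/Chrm2 and 252 and 389 against Ano1/Slc38a11 nuclei. Thinning to 1000 UMIs gave 1002 and 1514 against zero nuclei, where fewer genes (11341) were tested. Without the 5% deepest nuclei 343 and 346 were called against Runx3/Neb (2534 genes tested) and 535 higher against Fras1/Chrm2 nuclei (4981 tested), and 1 smaller difference in the interaction. Without the low-count filter 913 were higher than in Ano1/Slc38a11 nuclei, and the interaction gave 7 larger and 8 smaller. The cause was not tested. The 1079 then higher than in Runx3/Neb nuclei stayed just within 1.5 times.

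With each library left out in turn, higher and lower calls ranged from 1836 to 2251 and 2374 to 2737 against zero, 596 to 825 and 610 to 793 against Runx3/Neb, 712 to 889 and 778 to 974 against Fras1/Chrm2, 392 to 614 and 528 to 720 against Ano1/Slc38a11 nuclei, and 0 to 2 larger and 0 to 3 smaller in the interaction. No gene called against zero nuclei was called in the opposite direction under another setting, and 1956 of the 2203 higher and 2300 of the 2798 lower calls were shared with DESeq2. Of the named genes' tested values 745 kept direction and side of the threshold, none turned, and Cckar lost its call when thinned.

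Shares of the class (percent of nuclei) moved with the rule. At 4 UMIs from 3 genes they were 1.44 in the 10x control, 0.913 in Drop-seq, 1.19, 0.570, 1.66 and 0.771 at days 2, 7, 21 and 75, 0.543 after facial injury and 0.294 with scratch lesions. At 2 UMIs from 2 genes they were 4.53 in the 10x control, 5.36, 2.60, 5.09 and 3.38 at days 2 to 75, 2.38 after facial injury and 2.01 with scratch lesions. Thinned to 2000 UMIs they were 1.79 in the 10x control, 2.56 in Drop-seq, 1.40, 1.43, 2.13 and 0.605 at days 2 to 75, and 0.774 with scratch lesions.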

Other observations

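The control Drop-seq table, which entered a test only as an alternative with 8 tables (2423 genes higher and 2500 lower in the class than in zero nuclei), showed several leading genes at other levels than the 10x libraries. Eya1 stood at 117 CPM in Calb2/Col5a2 nuclei and 2.57 CPM in zero nuclei, within the 10x range of the class (30.9 to 137 CPM). Ibsp reached 216 CPM in the class and 7.85 CPM in zero nuclei, above the highest 10x library (66.8 CPM in the class). Nefh was at 8887 CPM in the class and 2959 CPM in zero nuclei, against at most 3178 CPM in the class in any 10x library. Glul, which separated the class from zero nuclei in all 7 10x libraries, was at 3.66 CPM in the class, a single UMI, and 6.19 CPM in zero nuclei. Mc4r, with 9 UMIs in each, was at 32.9 CPM in the class (exact Poisson interval 15.1 to 62.5) and 1.36 CPM in zero nuclei (0.621 to 2.58). Col25a1, at 91.1 to 345 CPM in the class in the 10x libraries, was at 25.6 CPM in the class and 10.1 CPM in zero nuclei. The table also lists no Chrm3, Kcna1, Gm45159, Gm45178 or Gm45179.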
